A study of Homo sapiens with 38 samples.

Results

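Mitochondrial complex I mRNAs are the 7 protein-coding transcripts MT-ND1, MT-ND2, MT-ND3, MT-ND4, MT-ND4L, MT-ND5 and MT-ND6 that the human mitochondrial genome contributes to the first enzyme of the respiratory chain. They were picked by Ensembl identifier from a raw count table of 90127 features, and all 7 were present. The table covers 38 small RNA libraries of 2 human acute myeloid leukaemia cell lines, HL60 and KG1a, both labelled wild type. From each line, RNA came from small extracellular vesicles (sEV), from large extracellular vesicles (lEV) and from the cells themselves. Each source was sequenced as RNA enriched for glycoRNA and as total RNA. The labels name rPAL as the enrichment for the cells and call the vesicle RNA enriched glycoRNA only, and both are called rPAL here. The rPAL chemistry oxidises the sialic acid of glycans with periodate and attaches biotin to the aldehydes, so that RNA bound to sialylated glycans can be pulled down. The 12 groups are HL60 sEV rPAL, HL60 sEV total, HL60 lEV rPAL, HL60 lEV total, HL60 cells rPAL, HL60 cells total, and the same 6 for KG1a. The KG1a cell groups had n = 4 libraries each and the other groups n = 3. Cells were grown in RPMI-1640 with 10% FBS and penicillin-streptomycin. The vesicles came from cells of the same lines held for 2 days in that medium lacking FBS, so source and serum cannot be told apart when vesicles are set against cells. The labels do not say whether replicates were separate cultures, and the p-values below therefore measure only the spread between these libraries.

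Complex I (NADH:ubiquinone oxidoreductase) takes electrons from NADH, passes them to ubiquinone and pumps protons across the inner mitochondrial membrane. Its membrane arm is built around the subunits encoded by mitochondrial DNA, while the remaining subunits are encoded in the nucleus and imported. MT-ND2, MT-ND4 and MT-ND5 encode the large antiporter-like subunits of the proton channels, MT-ND1 encodes a subunit beside the ubiquinone site, and MT-ND3, MT-ND4L and MT-ND6 encode small membrane subunits between them. Mitochondrial mRNAs are made as long polycistronic transcripts and are released largely by excision of the tRNAs that lie between them. They stay in the mitochondrial matrix in intact cells, and leukaemia cells are widely studied for their reliance on oxidative phosphorylation.

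In GENCODE release 29 (build GRCh38) all 7 are single-exon protein-coding genes of the mitochondrial chromosome. MT-ND1 lies at chrM:3307-4262, MT-ND2 at chrM:4470-5511, MT-ND3 at chrM:10059-10404, MT-ND4L at chrM:10470-10766, MT-ND4 at chrM:10760-12137 and MT-ND5 at chrM:12337-14148, all on the plus strand. MT-ND6 lies at chrM:14149-14673 on the minus strand, directly beside the end of MT-ND5. The first 30 bases of each annotated transcript are shown, since size-selected small RNA libraries sample short stretches of an mRNA. Capitals mark the first codon, which in several members is not ATG because human mitochondria also start translation at ATA and ATT.
MT-ND1: ATAcccatggccaacctcctactcctcatt
MT-ND2: ATTaatcccctggcccaacccgtcatctac
MT-ND3: ATAaacttcgccttaattttaataatcaac
MT-ND4L: ATGcccctcatttacataaatattatacta
MT-ND4: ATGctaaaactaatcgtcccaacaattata
MT-ND5: ATAaccatgcacactactataaccacccta
MT-ND6: ATGatgtatgctttgtttctgttgagtgtg

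Reads can be shared between a member and a neighbour or a nuclear copy. MT-ND4L and MT-ND4 sit on 1 bicistronic mRNA and overlap by 7 bases, which are in capitals in the window chrM:10733-10792 on the plus strand.
MT-ND4L and MT-ND4: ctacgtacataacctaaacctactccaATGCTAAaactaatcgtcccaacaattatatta
The nuclear genome also carries old insertions of mitochondrial DNA, annotated as MTND pseudogenes. Of the 25-base windows of MT-ND2, 63.8% also occurred in another annotated transcript, and each of these was found in the unprocessed pseudogene MTND2P28 at chr1:629640-630683. MTND2P28 matched 1025 of the 1042 bases of MT-ND2. The next 2 sequences are 60-base windows of both, at chrM:4706-4765 and chr1:629876-629935 on the plus strand, with the single base that differs in capitals.
MT-ND2: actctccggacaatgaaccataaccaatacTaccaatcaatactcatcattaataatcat
MTND2P28: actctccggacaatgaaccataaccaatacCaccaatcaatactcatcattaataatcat
The share of windows found elsewhere was 37.5% for MT-ND6, 32.3% for MT-ND4, 31.5% for MT-ND1, 27.1% for MT-ND4L, 22.4% for MT-ND5 and 5.28% for MT-ND3. How the counting treated reads with several hits and whether it used strand is not given in the sources used here, so counts of MT-ND2 are uncertain, and sense and antisense reads of MT-ND6 and its neighbours cannot be told apart.

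Levels are in CPM, the count of a gene scaled by the total count of its library. Totals were 2380745 to 15532758 counts in rPAL libraries and 5498168 to 14892937 in total libraries, and 7404 to 26722 features had a count in an rPAL library against 18686 to 38503 in a total library. In total RNA of the cells, CD34, a surface marker of primitive cells that KG1a carries, averaged 0.0704 CPM in HL60 and 2.95 CPM in KG1a. The granule enzyme MPO, which HL60 makes, averaged 2.49 CPM in HL60 and 0.0181 CPM in KG1a, while AZU1 stayed at or below 0.357 CPM and ELANE had no count in either line. Features annotated as rRNA or tRNA took 68.8% to 82.3% of the counts of HL60 cell rPAL libraries, against 32.8% to 34.5% in HL60 cell total libraries. In KG1a cells they took 55.8% to 92.0% of rPAL and 18.2% to 21.8% of total libraries. CPM of every mRNA depends on these shares, and their part in the results was not tested. In HL60 sEV rPAL replicate 2 the single gene PCNA held 40.1% of counts.

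Per whole library of total RNA, the 7 mRNAs together had their highest mean levels in cells and their lowest in sEV. In total RNA their summed level was 968 ± 316 CPM in KG1a cells (SD, n = 4), followed by HL60 cells at 935 ± 127 CPM (n = 3), KG1a lEV at 770.1 ± 333 CPM (n = 3), HL60 lEV at 677 ± 318 CPM (n = 3), KG1a sEV at 187 ± 64.3 CPM (n = 3) and HL60 sEV at 165 ± 107 CPM (n = 3). Neighbours in this order overlapped library by library, except across the step from HL60 lEV, whose lowest library had 366 CPM, to KG1a sEV, whose highest had 254 CPM. In rPAL RNA the order was KG1a cells at 1466 ± 776 CPM (n = 4), KG1a lEV at 789.7 ± 690.3 CPM (n = 3), HL60 cells at 588 ± 28.7 CPM (n = 3), HL60 lEV at 278 ± 103 CPM (n = 3), HL60 sEV at 207 ± 229 CPM (n = 3) and KG1a sEV at 155 ± 159.8 CPM (n = 3). The place of lEV turned with the denominator. Without rRNA and tRNA features in it, the sum in total RNA was 1813 CPM in HL60 lEV and 1417 CPM in HL60 cells, and 1873 CPM in KG1a lEV and 1216 CPM in KG1a cells, with sEV still lowest at 379 CPM in HL60 and 383 CPM in KG1a. The spread between libraries was as large as the mean, or nearly so, in 3 of the 4 rPAL vesicle groups. In a bulk library, fewer mRNA fragments in each cell or vesicle and a smaller share of cells or vesicles that hold them cannot be told apart.

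**Figure D1:**
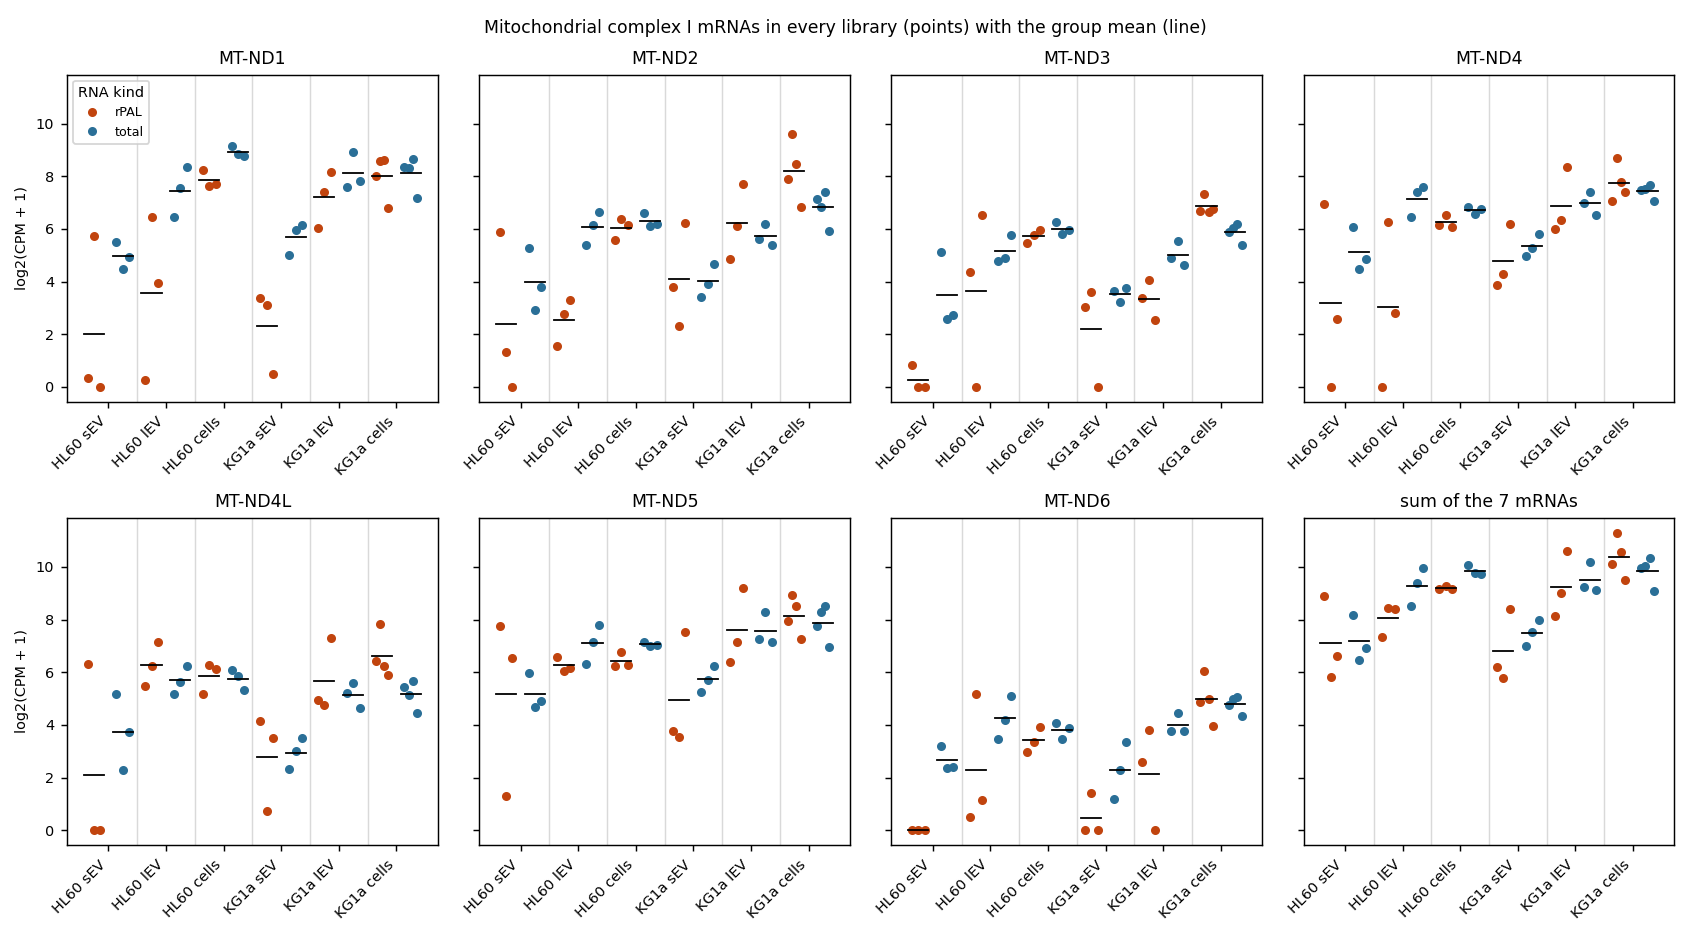
Level of each complex I mRNA and of their sum in each of the 38 libraries, as log2(CPM + 1), by source on the horizontal axis, with rPAL libraries left of total libraries and the group mean as a line. Total libraries of sEV lie below those of cells in both lines for all 7 mRNAs, and rPAL libraries of vesicles scatter widely, with several at 0.

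Single rPAL vesicle libraries set some of these means. KG1a lEV rPAL had 283, 510.0 and 1576 CPM for the sum, so that replicate 3 lay well above the other two. KG1a sEV rPAL had 72.4, 54.1 and 340 CPM, again with replicate 3 highest. HL60 sEV rPAL had 471, 55.0 and 96.2 CPM, with replicate 1 highest. Of the 38 libraries, MT-ND5 had a count in 38, MT-ND1 and MT-ND2 in 37, MT-ND4 and MT-ND4L in 36, MT-ND3 in 34 and MT-ND6 in 32, and the libraries without a count were rPAL libraries of vesicles.

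Compared per kilobase of gene, MT-ND1 was the most abundant of the 7 in total RNA of every source except HL60 sEV. It reached 511 ± 77.8 CPM per kb in HL60 cells (SD, n = 3) and 312 ± 114 CPM per kb in KG1a cells (SD, n = 4). MT-ND6, the member transcribed from the other strand, was lowest per kilobase in all 6 total RNA groups, at 25.2 CPM per kb in HL60 cells and 51.6 CPM per kb in KG1a cells. In HL60 sEV total RNA, MT-ND4L led with 57.2 CPM per kb, against 33.2 CPM per kb for MT-ND1. MT-ND3 and MT-ND4L, the shortest members, came next after MT-ND1 in HL60 cells, at 183 and 182 CPM per kb. In KG1a cells the place after MT-ND1 was held by MT-ND3 at 171 CPM per kb and MT-ND5 at 140.3 CPM per kb.

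Total RNA groups differed in the make-up of the 7. MT-ND1 took 52.2% ± 1.39 of the 7 mRNAs' counts in HL60 cells (SD, n = 3) and 30.3% ± 2.80 in KG1a cells (SD, n = 4). In the vesicles of HL60 its share was 21.5% ± 5.29 in sEV and 28.2% ± 4.34 in lEV (SD, n = 3 each), so that none of the 6 vesicle libraries reached the 50.6% of the lowest HL60 cell library. KG1a vesicles did not show this, with a share of 28.4% ± 4.205 in sEV and 38.2% ± 4.997 in lEV (SD, n = 3 each) beside the 30.3% of KG1a cells. MT-ND5 took 14.3% ± 1.01 in HL60 cells and 25.6% ± 3.93 in KG1a cells. In rPAL RNA single libraries could be dominated by 1 mRNA, as in HL60 sEV rPAL, where MT-ND1 made up 94.6% of the 7 in replicate 2 and MT-ND5 94.8% in replicate 3.

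**Figure D2:**
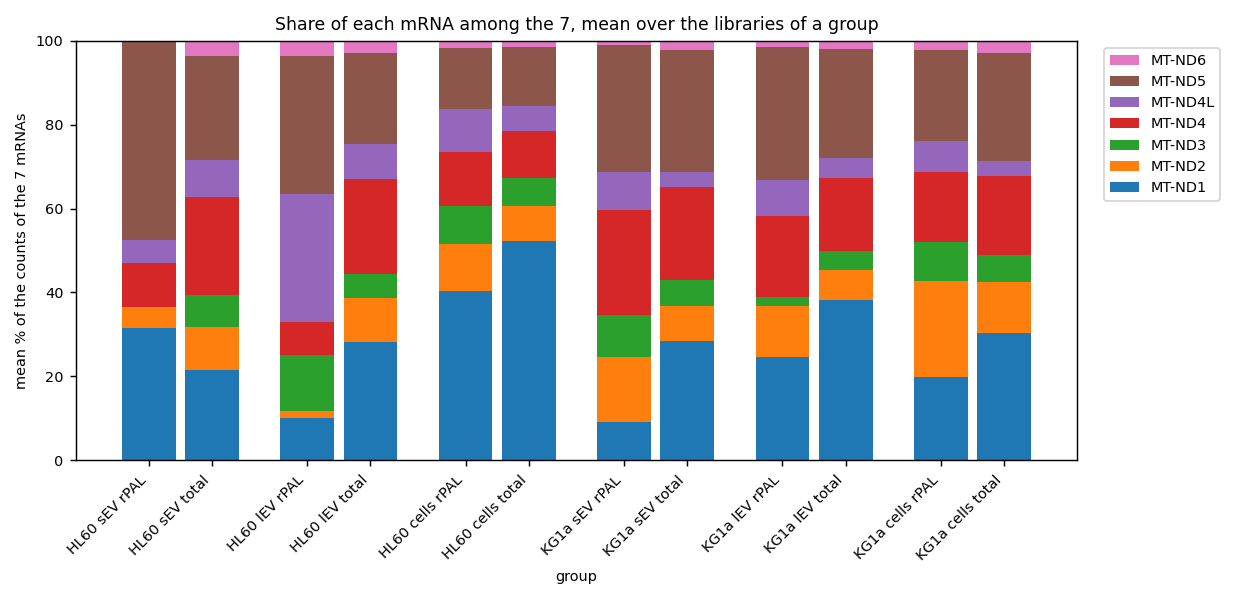
Mean percent of the counts of the 7 complex I mRNAs (vertical axis) that each mRNA takes in each of the 12 groups, with rPAL left of total in each source. MT-ND1 takes 52.2% in HL60 cells total and 30.3% in KG1a cells total; the rPAL vesicle bars are means over 3 libraries that differ widely.

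The first comparison asked whether rPAL-enriched RNA holds more or less of these mRNAs than total RNA of the same source. In no source did a complex I mRNA pass as higher after rPAL. In HL60 cells 2 of 7 were lower, and in KG1a cells none passed in either direction. Changes are log2 fold changes, rPAL over total, from edgeR's quasi-likelihood test after TMM scaling, with their SE, and a call is an adjusted p under 0.05 by the Benjamini-Hochberg method over all features tested. Overlap of libraries in CPM was looked at for the members only, here and in the later comparisons. No share over all features can be set beside it.

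In HL60 cells, MT-ND1 had 303, 199 and 209 CPM in rPAL RNA, against 573, 462 and 431 CPM in total RNA. Every rPAL library was below every total library. The change was -1.30 ± 0.27 (adjusted p = 0.0042), and it passed in each of the 6 fits that left out 1 library. MT-ND5 had 74.5, 109 and 76.6 CPM in rPAL RNA, against 142, 127 and 129 CPM in total RNA, again without overlap. Its change was -0.89 ± 0.28 (adjusted p = 0.032), and with library totals in place of TMM the adjusted p was 0.165. These 2 of 7 mRNAs compare with 18% of all 6902 features tested that were called lower. MT-ND4, another antiporter-like subunit, also did not overlap, at 69.1, 91.2 and 66.7 CPM in rPAL RNA against 113, 93.3 and 108 CPM in total RNA, but had an adjusted p of 0.067 at -0.74 ± 0.28. MT-ND4L had the highest change, -0.10 ± 0.40 (adjusted p = 0.873), which was 0.16 with library totals. The median change of all features was 0.04 with TMM and 0.31 with library totals. The number called was 5 without rPAL replicate 1 and 1 without total replicate 2. DESeq2 called 6, but it placed all 7 changes lower than edgeR did, with MT-ND4L at -0.54 in DESeq2 against -0.10 in edgeR. The share of all features called by DESeq2 is not given here. With all 12 groups in 1 fit, 0 were called.

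The order of rPAL and total RNA in HL60 cells turned with the denominator. With rRNA and tRNA features left out of it, the 7 mRNAs summed to 2429 CPM in rPAL RNA and 1417 CPM in total RNA of HL60 cells, the reverse of the 588 and 935 CPM per whole library. The called members turned as well, with MT-ND1 at 941 CPM in rPAL RNA and 740.1 CPM in total RNA and MT-ND5 at 371 CPM in rPAL RNA and 201 CPM in total RNA. In KG1a cells the sum was the higher one in rPAL RNA on both denominators, at 6571 CPM against 1216 CPM in total RNA without rRNA and tRNA.

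In HL60 lEV, MT-ND2 and MT-ND5 were lower after rPAL, both of them antiporter-like subunits. MT-ND2 had 1.91, 5.78 and 8.84 CPM in rPAL RNA, against 41.2, 69.1 and 99.3 CPM in total RNA. The groups did not overlap, and the change of -5.14 ± 0.93 (adjusted p = 0.0097) passed in each of the 6 fits that left out 1 library. MT-ND5 had 93.6, 65.0 and 70.9 CPM in rPAL RNA, against 79.4, 142 and 223 CPM in total RNA, so that 1 rPAL library lay above the lowest total library. Its change was -2.45 ± 0.67 (adjusted p = 0.024), and it missed the threshold with library totals in place of TMM, at an adjusted p of 0.312. Called lower were 2 of 7 members and 18.9% of all 3219 features tested. Between these 2 scalings the median change of all features was 0.08 with TMM and 1.52 with library totals, and relative to the TMM median MT-ND2 changed by -5.22. Of the members that did not pass, MT-ND1 had the lowest change, -3.92 ± 1.60 (adjusted p = 0.0987), and MT-ND4L the highest, -0.77 ± 0.72 (adjusted p = 0.474). The sign of MT-ND4L and of MT-ND3 depended on the scaling, with changes of 0.70 for MT-ND4L and 0.03 for MT-ND3 with library totals, and MT-ND4L averaged 86.2 CPM in rPAL RNA and 53.0 CPM in total RNA. The count was 4 without rPAL replicate 2 and 1 without total replicate 2 or total replicate 3.

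In HL60 sEV, MT-ND6 had no count in any of the 3 rPAL libraries, against 8.18, 4.19 and 4.32 CPM in total RNA. A count of 0 allows up to 0.309 CPM over the 3 libraries together (3 counts over the group; counting error only), which makes MT-ND6 at least 16.7-fold lower in rPAL RNA than its 5.15 CPM over the pooled total libraries. Its adjusted p was 0.029, but the call was lost in each of the 6 fits that left out 1 library, where the adjusted p reached 0.074. MT-ND3 had 0.758, 0 and 0 CPM in rPAL RNA, against 34.2, 5.03 and 5.57 CPM in total RNA. With 3 counts in all, MT-ND3 was 38.5-fold lower in the pooled rPAL libraries (95% counting interval 13.2 to 187), and it did not pass (adjusted p = 0.080). MT-ND5 had the highest change, 1.41 ± 1.33 (adjusted p = 0.549), with 213, 1.48 and 91.2 CPM in rPAL RNA against 61.5, 24.9 and 28.9 CPM in total RNA. The antiporter-like member was thus above total RNA in replicates 1 and 3 of rPAL and far below it in replicate 2, the library in which PCNA held 40.1% of counts. Called lower were 1 of 7 members and 16.3% of all 3619 features tested.

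In KG1a no member passed in any source, and the median change of all features in cells was -0.04 with TMM and 0.23 with library totals. In KG1a cells, MT-ND2 had 239, 780.5, 354 and 112 CPM in rPAL RNA, against 138, 114, 169 and 58.9 CPM in total RNA. MT-ND4L had 85.3, 227, 73.8 and 59.04 CPM in rPAL RNA, against 42.5, 33.9, 49.3 and 20.7 CPM in total RNA. Replicate 2 of rPAL was the highest in both, and for MT-ND4L, as for MT-ND3, every rPAL library exceeded every total library. The share of all features that did so was not counted. The highest change was that of MT-ND4L, 1.28 ± 0.49 (adjusted p = 0.102), and the lowest that of MT-ND1, -0.38 ± 0.47 (adjusted p = 0.663). None of the 7 was called (2 at an unadjusted p under 0.05, none by DESeq2), against 18.8% of all 6592 features called in either direction. Without rPAL replicate 4, 1 member was called.

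In KG1a lEV none of the 7 was called by edgeR or DESeq2, and none had an unadjusted p under 0.05, while 10.2% of all 5857 features were called in either direction. The changes ran from -1.73 ± 1.01 for MT-ND3 (adjusted p = 0.315) to 0.57 ± 0.95 for MT-ND4L (adjusted p = 0.775). MT-ND3 had 9.43, 15.8 and 4.88 CPM in rPAL RNA, against 28.8, 46.1 and 23.6 CPM in total RNA, with no overlap. In KG1a sEV none was called by edgeR, 2 had an unadjusted p under 0.05, and DESeq2 called MT-ND1, while 6.61% of all 8128 features were called in either direction. The median change of all features in KG1a sEV was -0.42 with TMM and -0.18 with library totals. MT-ND1 had 9.31, 7.66 and 0.413 CPM in rPAL RNA, against 31.3, 60.4 and 69.2 CPM in total RNA, a change of -3.40 ± 1.54 (adjusted p = 0.200). These groups did not overlap either. MT-ND2 had the highest change there, 0.92 ± 1.46 (adjusted p = 0.791).

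**Figure D3:**
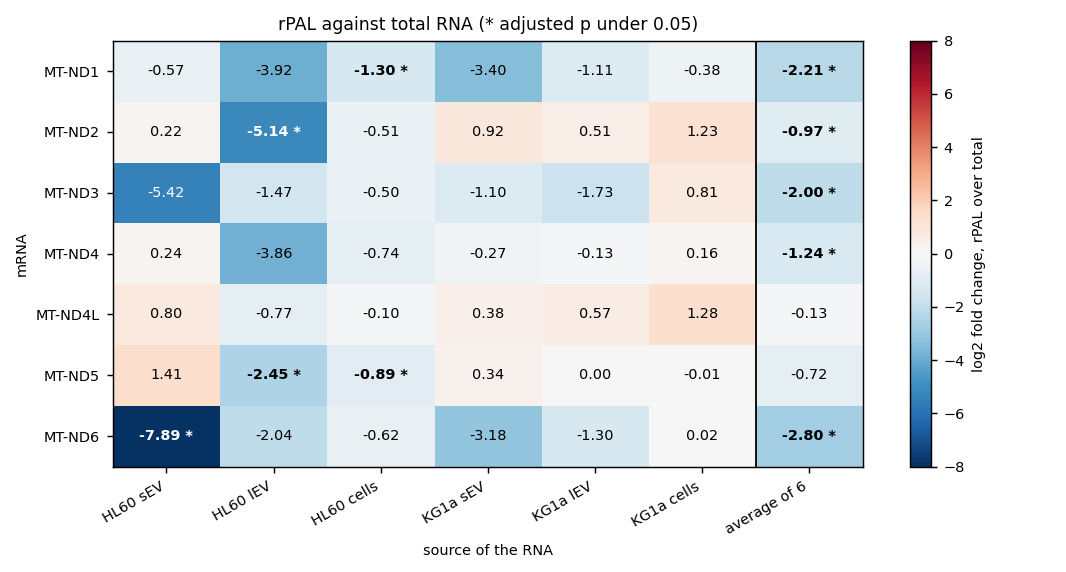
Log2 fold change, rPAL over total, of each complex I mRNA (down) in each source and averaged over the 6 sources (across), from edgeR with TMM scaling; blue is lower and red higher in rPAL RNA, and an asterisk marks an adjusted p under 0.05. The called cells are MT-ND1 and MT-ND5 in HL60 cells, MT-ND2 and MT-ND5 in HL60 lEV, MT-ND6 in HL60 sEV, and 5 members in the average.

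Averaged over the 6 sources in 1 fit with TMM scaling, 5 of 7 mRNAs were called lower in rPAL RNA. Signs differed between sources. Fitted by source, MT-ND2 changed by 1.23 in KG1a cells, 0.92 in KG1a sEV, 0.51 in KG1a lEV and 0.22 in HL60 sEV. It changed by -0.51 in HL60 cells and by -5.14 in HL60 lEV, the only call among these. MT-ND4 was also of mixed sign, and MT-ND1 lay below 0 in every source. MT-ND3 and MT-ND6 lay above 0 in KG1a cells alone, at 0.81 and 0.02. In the average, MT-ND6 changed by -2.80 ± 0.56 (adjusted p = 3.4e-05), MT-ND1 by -2.21 ± 0.44 (adjusted p = 3.1e-05) and MT-ND3 by -2.001 ± 0.46 (adjusted p = 0.00024). These 3 remained called with library totals in place of TMM and in each fit that left out 1 replicate number. MT-ND4 changed by -1.24 ± 0.43 (adjusted p = 0.015) and MT-ND2 by -0.97 ± 0.41 (adjusted p = 0.045). With library totals the adjusted p was 0.583 for MT-ND4 and 1.00 for MT-ND2, and neither was called. MT-ND5 at -0.72 ± 0.37 (adjusted p = 0.114) and MT-ND4L at -0.13 ± 0.44 (adjusted p = 0.972) did not pass, and both lay above 0 with library totals. In this fit 34.4% of all 18423 features were called lower, and the median change of all features was -0.82 with TMM and -0.19 with library totals. Relative to the TMM median the 5 called members changed by -1.98 for MT-ND6, -1.38 for MT-ND1, -1.18 for MT-ND3, -0.42 for MT-ND4 and -0.15 for MT-ND2. With rRNA and tRNA features left out of the denominator, MT-ND3 averaged higher in rPAL than in total RNA in every source but HL60 sEV. MT-ND2 and MT-ND4 then did so in every source but HL60 lEV. MT-ND1 and MT-ND6 averaged higher in rPAL RNA in cells of both lines and in KG1a lEV, and lower in the other sources. The average was not refitted on this denominator. Without the 3 rPAL vesicle libraries that stood apart (KG1a lEV rPAL replicate 3, KG1a sEV rPAL replicate 3 and HL60 sEV rPAL replicate 2, left out after the data were seen), 6 members were called.

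Differences between sources in the rPAL change were tested as interaction terms. In HL60 lEV against HL60 cells the rPAL change of MT-ND2 differed by -4.35 ± 0.91 (adjusted p = 0.0093), which was 1 of 7 members beside 11.4% of all features called lower. Relative to the median of all features in that contrast the difference of MT-ND2 was -3.56. In HL60 sEV against HL60 cells the differences were -7.44 ± 1.76 for MT-ND6 (adjusted p = 0.017) and -5.68 ± 1.48 for MT-ND3 (adjusted p = 0.022), or 2 of 7 members beside 12.8% of all features called lower. Relative to the median of all features there they were -5.91 for MT-ND6 and -4.15 for MT-ND3. The HL60 sEV rPAL group held 3 counts of MT-ND3 and none of MT-ND6, and the differences passed in 7 of 12 fits that left out 1 library for MT-ND6 and in 5 of 12 for MT-ND3. MT-ND2 in lEV passed in 9 of 12. The number called in lEV was 0 without HL60 cells total replicate 1, 2 or 3 and 4 without HL60 lEV rPAL replicate 2. In sEV it was 0 without HL60 cells total replicate 1, 2 or 3, HL60 cells rPAL replicate 3 or HL60 sEV total replicate 1, and 1 without HL60 cells rPAL replicate 1. Between HL60 cells and KG1a cells no rPAL change differed by edgeR or DESeq2 (3 members at an unadjusted p under 0.05), beside 1.81% of all features called in either direction. There all 7 differences, HL60 minus KG1a, were below 0, from -1.92 ± 0.70 for MT-ND2 (adjusted p = 0.152) to -0.80 ± 0.73 for MT-ND6 (adjusted p = 0.650), and without KG1a cells rPAL replicate 4, 1 member was called.

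The second comparison set vesicles against cells of the same line, in total RNA. All 7 complex I mRNAs were lower in KG1a sEV than in KG1a cells, and 6 of 7 were lower in HL60 sEV than in HL60 cells. In lEV 1 of 7 was lower than in KG1a cells and none passed against HL60 cells. The 2 kinds of vesicle also differed from each other, with 7 of 7 lower in sEV than lEV of KG1a and 5 of 7 in HL60.

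In KG1a, the sum of the 7 was 125, 183 and 254 CPM in sEV, against 986, 1058, 1292 and 536 CPM in cells. MT-ND2 had 9.75, 14.1 and 24.7 CPM in sEV, against 138, 114, 169 and 58.9 CPM in cells. No library of sEV reached the lowest of the cells, and this was so for each of the 7. Overlap was looked at for the members only, so no share over all features can be set beside this. MT-ND2 changed most, by -4.01 ± 0.50 (adjusted p = 0.00022), followed by MT-ND6 at -3.68 ± 0.59 (adjusted p = 0.00066). The quinone-site member MT-ND1 changed by -3.53 ± 0.49 (adjusted p = 0.00036), with 31.3, 60.4 and 69.2 CPM in sEV against 330.2, 320.5, 399 and 143 CPM in cells. MT-ND3 changed by -3.54 ± 0.42 (adjusted p = 0.00017) and MT-ND4L by -3.48 ± 0.50 (adjusted p = 0.00041). The antiporter-like MT-ND5 changed by -3.29 ± 0.46 (adjusted p = 0.00036), and MT-ND4 changed least, by -3.19 ± 0.40 (adjusted p = 0.00022). All 7 of 7 were called, against 22.1% of all 8725 features called lower, and all 7 passed in each of the 7 fits that left out 1 library. With all 12 groups in 1 fit, 4 were called. The median change of all features was 0.22 with TMM and 1.34 with library totals, and with library totals the members changed by -2.09 for MT-ND4 to -2.89 for MT-ND2. rRNA and tRNA features took 45.9% to 54.8% of counts in KG1a sEV and 18.2% to 21.8% in KG1a cells, and without them the sum was 383 CPM in sEV and 1216 CPM in cells.

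In HL60, the sum was 287, 87.1 and 122 CPM in sEV, against 1082, 872 and 853 CPM in cells. MT-ND1 had 44.0, 21.6 and 29.5 CPM in sEV, against 573, 462 and 431 CPM in cells. Its mean was 15.4-fold lower, the widest gap of the 7, and its change of -4.22 ± 0.38 (adjusted p = 0.00068) passed in each of the 6 fits that left out 1 library. MT-ND5 had 61.5, 24.9 and 28.9 CPM in sEV, against 142, 127 and 129 CPM in cells, a change of -2.05 ± 0.42 (adjusted p = 0.0085). No sEV library reached a cell library for any of the 7, with replicate 1 of sEV the highest throughout. How many of all features were without overlap was not counted here either. MT-ND3 changed by -2.35 ± 0.74 (adjusted p = 0.043), MT-ND2 by -2.32 ± 0.61 (adjusted p = 0.023), MT-ND4 by -1.71 ± 0.46 (adjusted p = 0.024) and MT-ND6 by -1.50 ± 0.49 (adjusted p = 0.0498). MT-ND4L changed by -1.97 ± 0.70 and did not pass (adjusted p = 0.067). The 6 of 7 compare with 12.8% of all 7555 features called lower. The median change of all features was 0.16 with TMM and 0.42 with library totals, and the call of MT-ND3 and of MT-ND6 was lost with library totals. With all 12 groups in 1 fit, 1 was called. The number called was 3 without sEV replicate 2, 2 without cells replicate 1, 1 without cells replicate 2 and 2 without cells replicate 3.

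**Figure D4:**
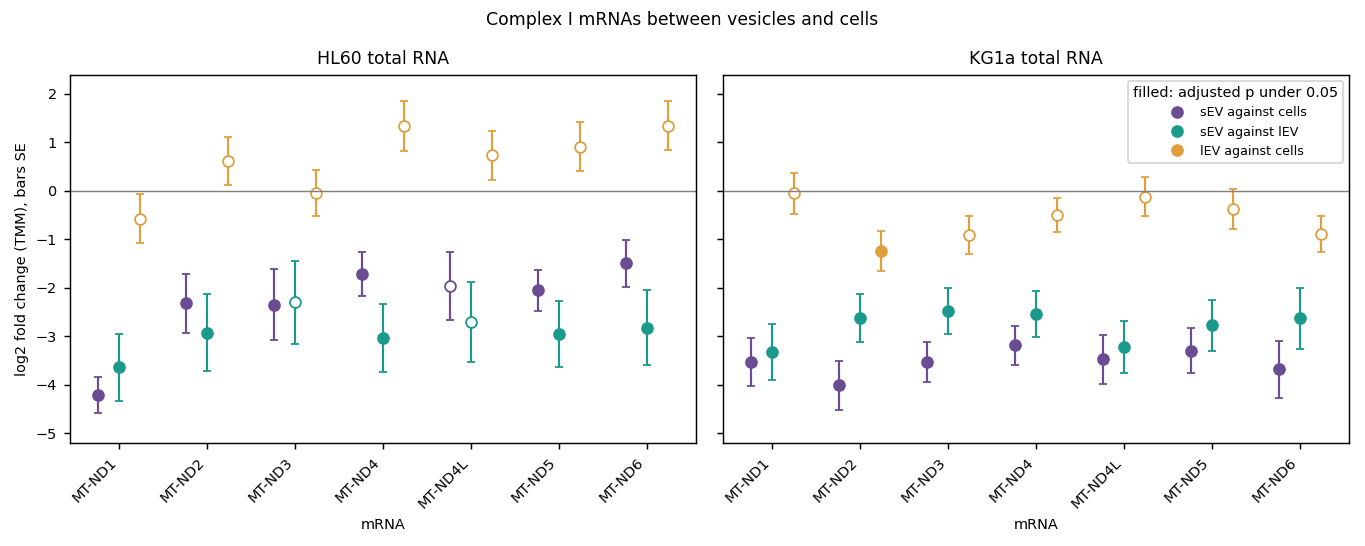
Log2 fold change with SE of each complex I mRNA in total RNA of HL60 (left) and KG1a (right), for sEV against cells, sEV against lEV and lEV against cells; filled points have an adjusted p under 0.05. All sEV points lie below 0, and of the lEV points only MT-ND2 of KG1a is filled.

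Against cells, few members passed in large vesicles. In KG1a, MT-ND2 had 48.1, 71.4 and 41.4 CPM in lEV, against 138, 114, 169 and 58.9 CPM in cells, a change of -1.24 ± 0.42 (adjusted p = 0.020). The 2 groups overlapped through replicate 4 of the cells. This was 1 of 7 members, against 28.5% of all 7780 features called lower. The call was lost with all 12 groups in 1 fit. The count was 2 without lEV replicate 2, 0 without lEV replicate 3, cells replicate 1 or cells replicate 3, and 3 without cells replicate 4. Of the others, MT-ND3 had the lowest change, -0.92 ± 0.39 (adjusted p = 0.057), and MT-ND1 the highest, -0.05 ± 0.42 (adjusted p = 0.929), with 194, 484 and 225 CPM in lEV against 330.2, 320.5, 399 and 143 CPM in cells. Without rRNA and tRNA features in the denominator, MT-ND1 averaged 733 CPM in lEV and 375 CPM in cells, and MT-ND2 129 CPM in lEV and 151 CPM in cells.

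In HL60 lEV none of the 7 was called against cells by edgeR (2 at an unadjusted p under 0.05, 2 called by DESeq2), while 27.3% of all 6527 features were called in either direction. MT-ND6 had the highest change, 1.34 ± 0.51 (adjusted p = 0.065), with 10.1, 17.3 and 33.2 CPM in lEV against 15.9, 10.1 and 13.7 CPM in cells. MT-ND1 had the lowest, -0.57 ± 0.51 (adjusted p = 0.427), with 87.0, 188 and 325 CPM in lEV against 573, 462 and 431 CPM in cells. In CPM per whole library MT-ND1 and MT-ND3 did not overlap, with all lEV libraries lower. How many of all features did so was not counted. With TMM, however, MT-ND3 changed by -0.04 ± 0.48 (adjusted p = 0.957). Without rRNA and tRNA features in the denominator, MT-ND3 averaged 96.1 CPM in lEV and 96.0 CPM in cells, and MT-ND1 530 CPM in lEV and 740 CPM in cells. The sign of MT-ND2 and MT-ND4L depended on the scaling, since the median change of all features was 0.16 with TMM and -0.61 with library totals. MT-ND2 changed by 0.61 ± 0.50 with TMM (adjusted p = 0.380) and by -0.17 with library totals (adjusted p = 0.866). Without lEV replicate 1, 2 members were called, and without lEV replicate 2, 1 was.

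Between the vesicle kinds, replicate numbers of sEV and lEV deviated together in both lines, and the blocked fit is given beside the unblocked one. In KG1a the sum was 125, 183 and 254 CPM in sEV and 597, 1154 and 559.5 CPM in lEV, and no library overlapped for any of the 7. Overlap over all features was not counted. The changes ran from -3.33 ± 0.58 for MT-ND1 (adjusted p = 0.037) to -2.47 ± 0.47 for MT-ND3 (adjusted p = 0.037). All 7 of 7 were called with and without the block, against 1.9% of all 7682 features called lower. Leaving out lEV replicate 1, 2 or 3 left 0 called, with adjusted p up to 0.254, while leaving out a library of sEV left all 7 called except for MT-ND6 in 1 fit. The median change of all features was 0.13 with TMM and 0.99 with library totals, and 6 members were called with library totals and 0 with all 12 groups in 1 fit.

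In HL60 the sum was 287, 87.1 and 122 CPM in sEV and 366, 663 and 1002 CPM in lEV. The 5 members called were MT-ND1 at -3.64 ± 0.69 (adjusted p = 0.015), MT-ND4 at -3.04 ± 0.71 (adjusted p = 0.025), MT-ND5 at -2.96 ± 0.68 (adjusted p = 0.025), MT-ND2 at -2.93 ± 0.79 (adjusted p = 0.043) and MT-ND6 at -2.82 ± 0.77 (adjusted p = 0.044). With the block 4 were called, since MT-ND6 had an adjusted p of 0.056. MT-ND4L at -2.70 ± 0.83 (adjusted p = 0.068) and MT-ND3 at -2.29 ± 0.86 (adjusted p = 0.126) did not pass, and MT-ND3 was the 1 member whose groups overlapped. The 5 of 7 compare with 1.75% of all 5813 features called lower. With all 12 groups in 1 fit 0 were called. With library totals 1 was called, MT-ND1, where the median change of all features moved to 1.04 from 0.07 with TMM. The count was 0 without lEV replicate 1, 2 or 3 and 1 without sEV replicate 2.

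The third comparison set HL60 against KG1a in total RNA. In cells MT-ND1 was higher and MT-ND5 and MT-ND6 lower in HL60, while the sum of the 7 was 935 ± 127 CPM in HL60 (SD, n = 3) and 968 ± 316 CPM in KG1a (SD, n = 4). MT-ND1 had 573, 462 and 431 CPM in HL60 cells, against 330.2, 320.5, 399 and 143 CPM in KG1a cells, and the lines did not overlap. Its change was 0.82 ± 0.29 (adjusted p = 0.030), and with library totals the adjusted p was 0.065. MT-ND6 had 15.9, 10.1 and 13.7 CPM in HL60 cells, against 26.2, 30.4, 32.5 and 19.3 CPM in KG1a cells, again without overlap, a change of -0.95 ± 0.30 (adjusted p = 0.016). MT-ND5 had 142, 127 and 129 CPM in HL60 cells, against 215, 313, 367 and 122 CPM in KG1a cells, so that replicate 4 of KG1a lay below HL60, and changed by -0.81 ± 0.30 (adjusted p = 0.041). These 3 of 7 members compare with 39.9% of all 8655 features called in either direction. Among the rest MT-ND4 was lowest at -0.62 ± 0.26 (adjusted p = 0.064) and MT-ND4L highest at 0.67 ± 0.33 (adjusted p = 0.112). The number called was 1 without HL60 replicate 1, 0 without HL60 replicate 2, 1 without HL60 replicate 3, 1 without KG1a replicate 2 and 5 without KG1a replicate 4, and it was 0 with all 12 groups in 1 fit.

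In vesicles no member passed between the lines. In lEV none of the 7 was called by edgeR (3 at an unadjusted p under 0.05, 1 by DESeq2), against 16.1% of all 6221 features called in either direction. The changes ran from 0.34 ± 0.61 for MT-ND1 (adjusted p = 0.754) to 1.54 ± 0.57 for MT-ND4L (adjusted p = 0.086). The median change of all features there was 0.04 with TMM and -0.90 with library totals, and with library totals MT-ND1 and MT-ND5 lay below 0. In sEV none was called by edgeR or DESeq2 (1 at an unadjusted p under 0.05), against 1.38% of all 8581 features called in either direction. In sEV the median over all features was 0.01 with TMM and -0.76 with library totals. The changes there ran from -0.01 ± 0.61 for MT-ND1 (adjusted p = 0.998) to 2.03 ± 0.88 for MT-ND4L (adjusted p = 0.329).

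The other mRNAs of the mitochondrial genome, which encode subunits of complexes III, IV and V, were looked at beside the 7. In KG1a, all 6 of the 6 were lower in sEV than in cells, with the complex IV mRNAs MT-CO3 at -3.89 ± 0.49 (adjusted p = 0.00022), MT-CO2 at -3.36 ± 0.51 (adjusted p = 0.00052) and MT-CO1 at -2.86 ± 0.44 (adjusted p = 0.00055). In HL60 5 of the 6 were lower in sEV than in cells, among them MT-CO3 at -3.72 ± 0.41 (adjusted p = 0.0011). In sEV against lEV all 6 were lower in both lines. Of the 22 mitochondrial tRNAs, 18 of 19 tested were lower in KG1a sEV than in cells and 19 of 21 tested in HL60, and both mitochondrial rRNAs were lower in both lines. Of all features, 22.1% were called lower in sEV than in cells of KG1a and 12.8% in HL60. Against lEV these shares were 1.9% in KG1a and 1.75% in HL60. After rPAL 1 of the 6 was higher and 2 were lower in HL60 cells, where 20.6% of all features were called higher. MT-CO1, which encodes the catalytic subunit of cytochrome c oxidase, had 881 ± 168 CPM in rPAL RNA and 123 ± 26.3 CPM in total RNA of HL60 cells (SD, n = 3 each). MT-CO1 changed there by 2.58 ± 0.25 (adjusted p = 5.1e-05). The complex I mRNAs made up 30.7% ± 2.07 of all 13 mitochondrial mRNA counts in HL60 cell rPAL RNA, against 54.3% ± 1.65 in HL60 cell total RNA (SD, n = 3 each), with no overlap. With MT-CO1 left out of the 13, the share was 56.5% ± 2.49 in rPAL RNA and 58.5% ± 1.98 in total RNA of HL60 cells, and the libraries overlapped. In KG1a cells the share of the 13 was 53.0% ± 6.39 in rPAL RNA and 56.3% ± 2.69 in total RNA (SD, n = 4 each), and the libraries overlapped.

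The nuclear genes of complex I were counted in the same contrasts. Of 37 listed nuclear subunits 13 were tested in KG1a sEV against cells, where 3 were higher and none lower, beside 23% of all features called higher. These were NDUFS1, which carries iron-sulphur clusters of the matrix arm, at 2.21 ± 0.66 (adjusted p = 0.018), NDUFA10 at 2.09 ± 0.56 (adjusted p = 0.0098) and NDUFB9 at 1.68 ± 0.63 (adjusted p = 0.046). The median over the 13 was -0.64, beside 0.22 over all features. In HL60 sEV against cells, where 13.9% of all features were called higher, 18 were tested, of which 1 was higher, NDUFB9 at 2.06 ± 0.52 (adjusted p = 0.019), and 1 lower, NDUFS7 at -1.57 ± 0.51 (adjusted p = 0.0498). Summed over all 37, the nuclear subunits averaged 44.6 CPM in HL60 sEV and 28.1 CPM in HL60 cells, and 68.3 CPM in KG1a sEV and 28.4 CPM in KG1a cells, in total RNA. The members summed to 165, 935, 187 and 968 CPM in the same 4 groups. No test of the difference between the lists was made.

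The nuclear copy MTND2P28 was counted at a level that tracked MT-ND2 and differed by source. In total RNA its counts were 31.5% to 49.6% of those of MT-ND2 in HL60 sEV, 43.9% to 50.1% in HL60 lEV and 73.2% to 79.8% in HL60 cells. In KG1a they were 39.4% to 51.6% in sEV, 56.9% to 64.7% in lEV and 87.4% to 89.4% in cells. Every vesicle library thus lay below every cell library of its line. rPAL RNA of cells gave 67.1% to 86.9% in HL60 and 89.8% to 93.2% in KG1a, and rPAL RNA of HL60 vesicles ranged from 26.4% to 167% on as few as 5 counts of MT-ND2 in a library. All 14 of the MTND pseudogenes tested in KG1a sEV against cells were lower, with a median change of -2.94, beside 22.1% of all features called lower. In HL60 sEV against cells 3 of 14 were lower and 1 higher, beside 12.8% of all features called lower and 13.9% called higher. How reads were divided between gene and copy was not tested.

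**Figure D5:**
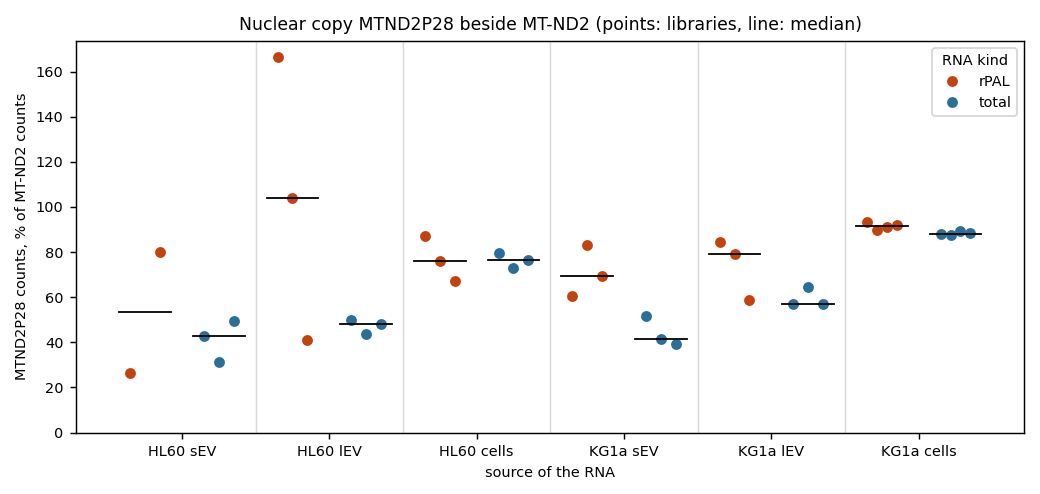
Counts of the pseudogene MTND2P28 as a percentage of the counts of MT-ND2 (vertical axis) in each library with a count of MT-ND2, by source, with rPAL libraries left of total libraries and the median as a line. In total RNA the percentage is 87.4% to 89.4% in KG1a cells and 39.4% to 51.6% in KG1a sEV.

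Across the 12 group means of log2(CPM + 1), the features most like the summed members were looked for among 633 features with a symbol and a mean of at least 10 CPM. Outside the mitochondrial chromosome and the MTND pseudogenes the 5 closest were MTCO3P12 (Pearson r = 0.848), MTATP6P1 (r = 0.842), the lncRNA AC051619.7 (r = 0.725), the lncRNA LINC00324 (r = 0.7105) and MTATP8P2 (r = 0.681). Of these, 3 are nuclear copies of other mitochondrial genes. All 13 other mitochondrial genes in this set were among the 50 closest, the nearest being MT-CYB (r = 0.910). These values are over 12 groups that share libraries and rRNA and tRNA shares with the members, and they are given as a description.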

How the data were processed

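The deposited table holds raw whole-number counts per feature, which the authors made from small RNA libraries (MGIEasy kit, gel size selection, per the labels' protocols). Bowtie2 and GRCh38/hg38 are named in the submitters' processing notes, and the counting tool, its use of strand and its treatment of reads with several hits are not given in the sources used here. Depth is the total count per library, and intervals and floors cover counting error only. Gene names, positions and sequences came from GENCODE release 29. The members and gene lists were chosen with earlier results of these data known.

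Each comparison was fitted to the libraries of its own groups with edgeR 4.0.16 in R 4.3.3 (filterByExpr, TMM, robust quasi-likelihood test, Benjamini-Hochberg adjustment over all features), on the log2 scale, with SE taken as the size of the change divided by the square root of F. The scripts were tested on simulated data. Alternatives were library totals, RLE scaling, no low-count filter, DESeq2 1.42.0, a replicate block, 1 fit over all groups and each library left out. Fold changes are printed for called members and for the highest and lowest of the others, and for up to 3 called genes of highest mean CPM per list. Exceptions include MT-ND2 and MT-ND3 in HL60 lEV against cells and the changes by source given with the average. MT-ND2 in HL60 lEV against cells was chosen after its values were seen because its sign depends on the scaling.

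Same-numbered sEV and lEV libraries of total RNA deviated together, with correlations of their deviations of 0.42, 0.15 and 0.30 in KG1a and 0.14, 0.11 and 0.19 in HL60. A blocked fit is therefore given for them. Correlations were also above 0 in all numbers between sEV total RNA of HL60 and KG1a, at 0.09, 0.31 and 0.35. The same held for total RNA of HL60 lEV and cells (0.006, 0.14 and 0.09) and for cells of the 2 lines (0.10, 0.002 and 0.07). These correlations therefore do not show that numbers pair samples. Python 3.11.15, pandas 2.3.3, numpy 2.4.6, scipy 1.17.1 and matplotlib 3.10.9 were used for summaries.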

Additional observations from a re-analysis of the deposited data

Results flagged for a closer look

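In KG1a cells rPAL, replicate 2 stood apart for the small membrane subunits MT-ND3 and MT-ND4L. It had 161 CPM of MT-ND3 and 227 CPM of MT-ND4L, and its gap to the nearest library was 0.881 of the group's range for MT-ND3 and 0.844 for MT-ND4L. The 16 groups of values tested this way were the 7 mRNAs and their sum in the KG1a cell groups. Groups of 3 libraries were not tested. Of the 16, 2 passed, both through the same library. Chance passes about 1 in 20 of independent groups of values, and these are not independent.

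The rPAL change differed between sources by an interaction term in edgeR for 3 members. For MT-ND2 the difference, HL60 lEV minus HL60 cells, was -4.349 (adjusted p = 0.0093). For MT-ND6 the difference, HL60 sEV minus HL60 cells, was -7.439 (adjusted p = 0.017), and for MT-ND3 it was -5.676 (adjusted p = 0.022).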

How the results depend on the processing

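Every fitted fold change of a called member kept its direction under the other scalings, filters, tools and designs and with a library left out. Fold changes were not refitted without rRNA and tRNA features, where the mean CPM of the called members MT-ND1 and MT-ND5 in HL60 cells turned round. In HL60 cells the mean CPM of MT-ND2, MT-ND3, MT-ND4 and MT-ND6, which were called in the average over 6 sources, turned round as well. The other sources are described with the average. Of the fitted fold changes of called members, 186 under other settings stayed on their side of the threshold and 66 lost their call. With libraries left out 169 stayed and 102 lost it. Smaller moves in the number of members called, between numbers above 0, are left out below and can hide changes of members. With the replicate block MT-ND5 lost its call in HL60 lEV, rPAL against total (adjusted p = 0.059), while MT-ND1 and MT-ND4 gained one. With the block between the lines in cells, MT-ND1 lost its call (adjusted p = 0.065), while MT-ND2 and MT-ND4 gained one. The number of members called moved by more as follows, and the cause was not tested. With library totals in place of TMM it was 1 in HL60 cells and 1 in HL60 lEV (rPAL against total), 1 in HL60 sEV against lEV, 0 for HL60 lEV minus cells and 3 in the average over 6 sources. With RLE it was 3 in HL60 sEV against lEV, 0 for HL60 sEV minus cells and 3 in the average. Without the low-count filter it was 0 in HL60 sEV (rPAL against total), 0 for HL60 lEV minus cells and 0 for HL60 sEV minus cells. DESeq2 called 1 in KG1a sEV, 6 in HL60 cells and 2 in HL60 sEV (rPAL against total), 3 in KG1a lEV against cells, 2 in HL60 lEV against cells, 1 in lEV of the 2 lines and 3 in the average. With the replicate block it was 1 in HL60 cells and 0 in HL60 sEV (rPAL against total), 3 in KG1a lEV against cells and 1 for HL60 sEV minus cells, where the numbers are not said to pair the samples. In 1 fit over all 12 groups it was 0 in HL60 cells and 2 in HL60 sEV (rPAL against total), 0 in KG1a lEV against cells, 4 in KG1a sEV against cells, 0 in KG1a sEV against lEV, 1 in HL60 sEV against cells, 0 in HL60 sEV against lEV, 0 between the lines in cells, and 0 for both HL60 lEV minus cells and HL60 sEV minus cells. With 1 library left out at a time, the number ran from 0 to 1 in KG1a cells, 1 to 5 in HL60 cells, 1 to 4 in HL60 lEV and 0 to 0 in HL60 sEV (rPAL against total). It ran from 0 to 3 in KG1a lEV against cells, 0 to 7 in KG1a sEV against lEV, 0 to 2 in HL60 lEV against cells, 1 to 7 in HL60 sEV against cells, 0 to 5 in HL60 sEV against lEV and 0 to 5 between the lines in cells. It ran from 0 to 4 for HL60 lEV minus cells, 0 to 3 for HL60 sEV minus cells and 0 to 1 for HL60 minus KG1a cells, and was 7 throughout in KG1a sEV against cells. The shares of all features called in these alternative fits are not given here. Whether a move concerns the members or all features therefore cannot be told from these numbers. Leaving rRNA and tRNA features out of the denominator moved the summed CPM of 11 of 12 groups by more than 1 SD. Their means were then 637 and 379 CPM in HL60 sEV rPAL and total, 1069 and 1813 CPM in HL60 lEV, 2429 and 1417 CPM in HL60 cells, 543 and 383 CPM in KG1a sEV, 4491 and 1873 CPM in KG1a lEV, and 6571 and 1216 CPM in KG1a cells. MT-ND6 and MT-ND3 in HL60 sEV rPAL, at 0 and 3 counts, are limited by depth.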
